A study of Mus musculus with 12 samples.

Results

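The numbered Zfp genes are mouse genes named Zfp (zinc finger protein) plus a number and, for some, a letter. They were selected on their measured level, as the symbols of that form in the deposited count table whose mean over all 12 libraries was at least 5 CPM (counts-per-million of the library's total). Of 371 such symbols among the 35976 in the table, 275 were members. Another 93 lay under the threshold, and Zfp42, Zfp57, Zfp263, Zfp428 and Zfp560 were left out by name. The nearest symbols below the threshold were Zfp185 at 4.93 CPM, Zfp580 at 4.80 CPM and Zfp449 at 4.77 CPM, and the nearest above it were Zfp946 at 5.003 CPM, Zfp931 at 5.007 CPM and Zfp579 at 5.05 CPM. Because this mean level chose the members, levels are given as a description. The mean level does not use differences between groups. Of the symbols left out by name, Zfp263, Zfp428 and Zfp560 did differ between groups, as given below. Zfp263 and Zfp560 also lay under the threshold, at 1.91 and 0.456 CPM.

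The study profiled RNA of mouse embryonic stem (ES) cells of the line labelled V6,5, asking what a leukaemia-derived form of the dioxygenase TET2, N1300T, does to gene expression. Cells grew on gelatin in medium with serum, LIF, the GSK3 inhibitor CHIR99021 and the MEK inhibitor PD0325901, and total RNA was sequenced with paired ends. Each of 4 groups holds 3 libraries, lettered A, B and C. N1300T 49 and N1300T 81 carry 1 genotype label, a Tet1 knockout with Tet2 N1300T, and differ only by number. DKO lacks Tet1 and Tet2 by its label, and Tet1KO lacks Tet1, so a Tet1 knockout is shared by all 12 libraries and Tet1KO stands for unchanged Tet2. The sources used here do not give what the numbers 49 and 81 mean, whether each set came from 1 clone, or how the N1300T allele was introduced. Each numbered set is called a preparation below. With 1 set of libraries for DKO and 1 for Tet1KO, the genotype cannot be told apart from other properties of those cells. The labels do not say whether the libraries of a group came from separate cultures. All p-values therefore speak of the spread among these libraries, which may be technical.

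Most genes of this kind encode proteins with a row of C2H2 zinc fingers, small loops held by a zinc ion that read DNA bases. Many also carry a KRAB domain, which binds TRIM28 and through it the histone methyltransferase SETDB1, and in ES cells this machinery keeps transposable elements and imprinted alleles silent. Other members work without KRAB, as transcription cofactors, RNA-binding proteins or spindle proteins. TET enzymes oxidise 5-methylcytosine and so act on CG dinucleotides, which many zinc finger promoters hold.

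RefSeq promoter windows (build GRCm38.p6, the assembly named mm10) of 300 bases were matched by symbol for 230 of the 275 members, taking the window with most CG where a gene had several. The median window held 16 CG dinucleotides, against 8 over 27025 symbols with a window. These symbols were taken at any level, while members reach 5 CPM, and the part of level in this difference was not tested. Sequences upstream of 4 members that were higher both in N1300T and in DKO than in Tet1KO show how far these genes differ in CG content. Each run goes 5′ to 3′ up to the base before the gene's RefSeq start, or to the window's last base before it, and capitals mark CG.
Zfp28, chr7:6383068-6383205, plus strand: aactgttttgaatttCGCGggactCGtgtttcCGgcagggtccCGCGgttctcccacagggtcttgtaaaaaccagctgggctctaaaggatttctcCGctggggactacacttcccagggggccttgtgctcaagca
Zfp386, chr12:116047474-116047713, plus strand: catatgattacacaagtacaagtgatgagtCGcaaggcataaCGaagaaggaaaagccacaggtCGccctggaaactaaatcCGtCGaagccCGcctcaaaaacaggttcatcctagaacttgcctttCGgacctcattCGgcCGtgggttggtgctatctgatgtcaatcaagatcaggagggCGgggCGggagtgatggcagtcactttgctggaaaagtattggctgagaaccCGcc
Zfp600, chr4:146156577-146156826, plus strand: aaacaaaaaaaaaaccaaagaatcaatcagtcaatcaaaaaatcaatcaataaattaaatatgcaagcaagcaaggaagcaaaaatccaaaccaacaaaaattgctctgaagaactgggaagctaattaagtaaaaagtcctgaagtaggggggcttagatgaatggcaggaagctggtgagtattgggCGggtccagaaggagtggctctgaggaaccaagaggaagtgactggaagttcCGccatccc
Zfp970, chr2:177464492-177464741, plus strand: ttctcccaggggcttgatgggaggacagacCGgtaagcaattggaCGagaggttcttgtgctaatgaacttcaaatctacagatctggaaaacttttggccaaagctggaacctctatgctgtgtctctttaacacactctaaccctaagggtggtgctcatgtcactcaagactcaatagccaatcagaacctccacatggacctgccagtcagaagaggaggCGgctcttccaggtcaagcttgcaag
The run of Zfp28 holds 7 CG in 138 bases and that of Zfp386 holds 12 in 240 bases. Those of Zfp600 and Zfp970 hold 2 and 3 CG in 250 bases.

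Total counts per library ran from 31515011 (N1300T 49 C) to 57054862 (DKO A). Each of the 10 ES cell markers was counted in every group, with sums of 6637 to 7405 CPM per library. Of these Tfcp2l1 was lower in DKO than in Tet1KO, at -0.30 ± 0.06 (adjusted p 0.0022, edgeR's quasi-likelihood test) on the log2 scale. None was called in N1300T against Tet1KO. The 12 fibroblast markers summed to 11.9 to 17.2 CPM, the 10 primitive endoderm markers to 101 to 132 CPM and the 10 markers of two-cell-like cells to 0.300 to 0.728 CPM. Most of the endoderm sum was Lama1, which was not called, at 0.02 ± 0.07 (adjusted p 0.865) in N1300T and -0.12 ± 0.08 (adjusted p 0.379) in DKO against Tet1KO. Of the other 9 endoderm markers, Gata4, Amn, Gata6 and Pdgfra were higher and Dab2 lower in N1300T than in Tet1KO, and Gata4 and Amn were higher in DKO. Gata4, a transcription factor of primitive endoderm, averaged 5.19 ± 0.484 CPM in N1300T 49, 2.05 ± 0.342 CPM in N1300T 81, 3.47 ± 0.387 CPM in DKO and 1.22 ± 0.310 CPM in Tet1KO (SD, n = 3 each), and its rise was 1.42 ± 0.18 (adjusted p 4.47e-05) in N1300T and 1.47 ± 0.20 (adjusted p 9.14e-05) in DKO on the log2 scale by edgeR's quasi-likelihood test. Of the 6 fibroblast markers tested, 2 were higher and 1 lower in N1300T and 2 higher in DKO. The part of these markers' cells in the members' differences was not tested. Tet2 averaged 134 ± 9.86 CPM in N1300T 49, 142 ± 12.6 CPM in N1300T 81, 96.2 ± 3.73 CPM in DKO and 159 ± 17.1 CPM in Tet1KO (SD, n = 3 each). Its transcript was lower in DKO than in Tet1KO, at -0.76 ± 0.09 (adjusted p 1.43e-05) on the log2 scale. Tet1 averaged 163 ± 15.5 CPM in N1300T 49, 158 ± 18.2 CPM in N1300T 81, 177 ± 7.52 CPM in DKO and 151 ± 20.2 CPM in Tet1KO, and a count over the whole gene does not show a short deletion. In bulk RNA, fewer cells of a type and less RNA per cell cannot be told apart.

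Together the members took 0.989 ± 0.0177% of the counts in N1300T 49, 1.003 ± 0.0308% in N1300T 81, 1.04 ± 0.0254% in DKO and 0.964 ± 0.0279% in Tet1KO (SD, n = 3 each). Their mean levels had a median of 18.1 CPM. Per kilobase of exon the median was 3.99 CPM, with a lowest value of 0.535 CPM. Per kilobase the highest was Zfp106 at 68.2 CPM, an RNA-binding protein known for its part in keeping motor neurons, followed by Zfp207 at 58.4 CPM, which binds the checkpoint protein BUB3 at the spindle. Zfp553 stood at 48.0 CPM and Zfp710 at 33.2 CPM per kilobase. Zfp568, a KRAB protein that represses a placental transcript of Igf2, stood at 32.8 CPM per kilobase. These were the 5 members of the highest mean CPM, and apart from Zfp553 none was called in any comparison. In Zfp106 the values were 691, 719 and 686 CPM in N1300T 49, 756, 731 and 704 CPM in N1300T 81, 717, 702 and 741 CPM in DKO and 713, 677 and 692 CPM in Tet1KO. All 12 libraries lay within a narrow range, although 26.1% of its exon bases overlap another annotated gene. Zfp568 had 228, 225 and 249 CPM in N1300T 49, 233, 209 and 251 CPM in N1300T 81, 266, 251 and 261 CPM in DKO and 238, 219 and 263 CPM in Tet1KO, and here too the groups overlapped except that every N1300T library lay below every DKO library, at -0.12 ± 0.06 (adjusted p 0.269).

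All comparisons come from 1 fit of the 12 libraries with edgeR's quasi-likelihood test over 16014 genes, and a gene counted as called when its p, adjusted after Benjamini and Hochberg over these genes, was below 0.05. All 275 members passed the filter on low counts. Fold changes are log2 ± SE, and N1300T without a number is the average of the 2 preparations at equal weight. The members' median log2 fold change was 0.04 in N1300T against Tet1KO, 0.07 in DKO against Tet1KO and -0.05 in N1300T against DKO. Over the 10159 genes that reach the same 5 CPM the medians were -0.01 in N1300T and -0.02 in DKO against Tet1KO, and 0.01 in N1300T against DKO. In DKO 195 of the 275 members lay above Tet1KO (70.9%, against 44.4% of the genes at 5 CPM), in N1300T 159 did (57.8%, against 48.2%), and 84 lay higher in N1300T than in DKO (30.5%, against 52.3%). These comparisons share their Tet1KO or DKO libraries and are not independent.

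**Figure D1:**
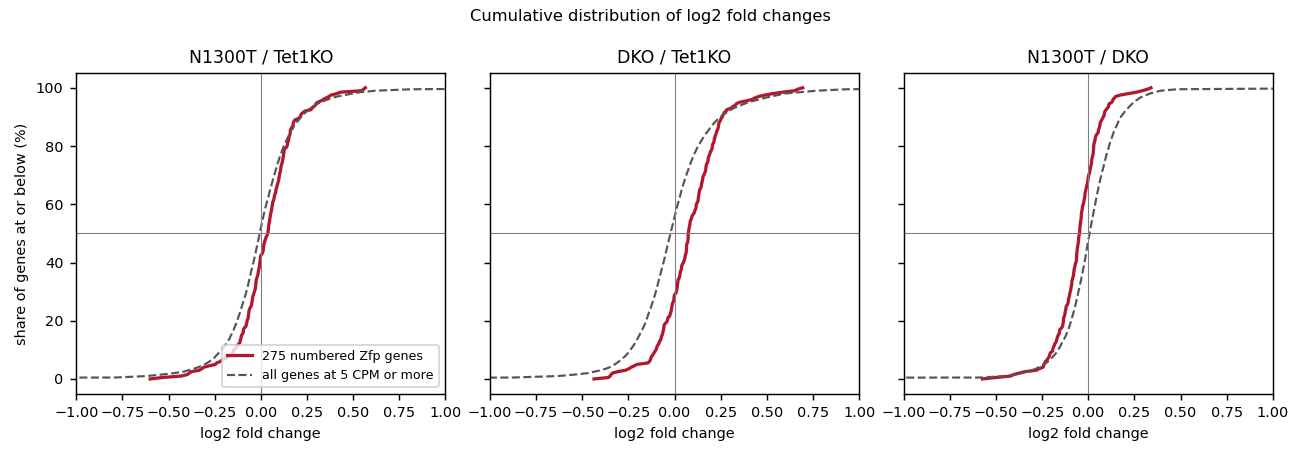
Cumulative distribution of log2 fold changes in 3 comparisons, for the 275 numbered Zfp genes (red line) and all genes at 5 CPM or more (dashed line); the vertical axis gives the share of genes at or below each value. The red line lies right of the dashed line around its median in N1300T and DKO against Tet1KO (medians 0.04 and 0.07) and left of it in N1300T against DKO (median -0.05), and it ends before a log2 fold change of 1 on both sides.

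No member differed by over 2-fold in any of the 4 main comparisons. The 95% interval of the log2 fold change lay within a 1.5-fold change for 259 of the 275 members in N1300T against Tet1KO, 256 in DKO against Tet1KO, 267 in N1300T against DKO and 273 in N1300T 49 against N1300T 81. In all 4 of these comparisons it lay within a 2-fold change for 275 members. Among the 10159 genes at 5 CPM such calls were also rare, with 58 (0.571%) in N1300T against Tet1KO, 78 (0.768%) in DKO against Tet1KO, 21 in N1300T against DKO and 9 between the preparations. The members' middle range was narrow. Between the 25th and 75th percentile they spanned -0.05 to 0.12 in N1300T against Tet1KO and -0.01 to 0.18 in DKO against Tet1KO.

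Against Tet1KO, DKO cells had 23 members higher and 5 lower, 10.2% of the 275, where 15% of all tested genes were called (7.86% higher and 7.12% lower) and 16.4% of the genes at 5 CPM. The members' share of calls lay below both backgrounds. Zfp28 (chr7:6383206-6396637), a KRAB gene with 14 finger matches, rose the most. Its levels were 9.08, 8.80 and 8.25 CPM in N1300T 49, 7.42, 7.94 and 7.07 CPM in N1300T 81, 9.10, 9.22 and 8.80 CPM in DKO and 4.79, 5.97 and 5.51 CPM in Tet1KO. Every DKO and N1300T library lay above every Tet1KO library. The rise in DKO was 0.69 ± 0.11 (adjusted p 0.000316).

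Zfp553 (chr7:127233061-127238197), with 12 fingers and no KRAB match, is among the most abundant members. It had 177, 175 and 230.0 CPM in N1300T 49, 201, 187 and 241 CPM in N1300T 81, 222, 237 and 209.8 CPM in DKO and 131, 129 and 149 CPM in Tet1KO, and no DKO or N1300T library reached down to the Tet1KO values. Its rise in DKO was 0.67 ± 0.10 (adjusted p 0.000205). Zfp365 (chr10:67886105-67912662), studied in mouse brain as a partner of DISC1, had 39.8, 38.1 and 46.5 CPM in N1300T 49, 32.7, 27.95 and 46.1 CPM in N1300T 81, 51.7, 48.5 and 54.0 CPM in DKO and 26.7, 29.5 and 38.5 CPM in Tet1KO. The DKO libraries stood above all others, and the N1300T libraries overlapped Tet1KO. The rise in DKO was 0.66 ± 0.14 (adjusted p 0.00444), and in N1300T the difference of 0.28 ± 0.13 (adjusted p 0.156) missed the threshold.

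Zfp750 (chr11:121510976-121519342), a factor of epidermal differentiation that acts downstream of p63, showed the same order with 15.8, 17.2 and 24.1 CPM in N1300T 49, 15.7, 16.3 and 21.7 CPM in N1300T 81, 28.6, 26.4 and 27.2 CPM in DKO and 13.9, 18.3 and 18.9 CPM in Tet1KO. Only its DKO libraries stood apart, 0.65 ± 0.14 (adjusted p 0.00544) above Tet1KO. Zfp579, just inside the level threshold, had 5.54, 6.05 and 5.46 CPM in DKO and 3.16, 4.45 and 3.36 CPM in Tet1KO, a rise of 0.59 ± 0.17 (adjusted p 0.0239). The KRAB genes Zfp867, Zfp758 and Zfp386 completed the 8 largest rises, with 0.54 ± 0.14 (adjusted p 0.0124), 0.52 ± 0.15 (adjusted p 0.0283) and 0.48 ± 0.13 (adjusted p 0.0149). Zfp867 had 15.5, 15.7 and 17.2 CPM in DKO and 9.77, 9.597 and 12.9 CPM in Tet1KO, with no overlap. Zfp758 had 7.22, 6.20 and 7.02 CPM in DKO and 4.10, 4.45 and 5.32 CPM in Tet1KO, with no overlap either. Among the other 15 that rose were Zfp280d (0.45 ± 0.07), Zfp280c (0.33 ± 0.09), Zfp251 (0.37 ± 0.08) and Zfp532 (0.42 ± 0.07), and the smallest was Zfp7 at 0.17 ± 0.05.

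The 5 members that fell in DKO lie on 5 chromosomes. Zfp395 (chr14:65358676-65398930), whose human relative was named for binding the huntingtin gene's promoter, had 14.8, 19.4 and 13.96 CPM in N1300T 49, 18.5, 21.7 and 15.8 CPM in N1300T 81, 18.3, 18.6 and 18.6 CPM in DKO and 24.9, 27.2 and 21.0 CPM in Tet1KO. The DKO values were almost equal to each other and below all Tet1KO values, at -0.44 ± 0.13 (adjusted p 0.032). Zfp746 (chr6:48062391-48086986) encodes PARIS, a repressor of Ppargc1a that parkin marks for degradation, and fell, at -0.36 ± 0.10 (adjusted p 0.0286). Zfp330, a nucleolar autoantigen, had 53.5, 49.3 and 48.4 CPM in DKO and 71.5, 57.8 and 56.6 CPM in Tet1KO, a difference of -0.34 ± 0.08 (adjusted p 0.0106), and Tet1KO A was the highest of its 12 libraries. The log2 difference of Zfp459 was -0.26 ± 0.07 (adjusted p 0.0182). Zfp143, an activator that binds promoters and chromatin loop ends, fell, at -0.20 ± 0.06 (adjusted p 0.0409), with 35.1, 34.7 and 35.9 CPM in DKO and 40.8, 39.3 and 38.7 CPM in Tet1KO.

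Further members rose in DKO and were named after their values were seen. They were Zfp27 (0.33 ± 0.10), Zfp971 (0.31 ± 0.09), Zfp534 (0.28 ± 0.09), Zfp871 (0.25 ± 0.07), Zfp689 (0.42 ± 0.13) and Zfp970 (0.40 ± 0.09). How many members passed in DKO depended on single libraries. Leaving out 1 library at a time gave 9 to 28 members higher and 1 to 7 lower. The higher count was 11 without DKO A, 10 without DKO C, 9 without Tet1KO A and 14 without Tet1KO B, and the lower count was 1 or 2 without any of DKO A, DKO B, DKO C, Tet1KO A or Tet1KO B. The share of all tested genes called fell as well, from 15% to 8.71% without DKO A, 10.3% without DKO B and 8.59% without DKO C. It was 8.46% without Tet1KO A and 11.6% without Tet1KO B. Zfp28, Zfp553, Zfp365, Zfp750, Zfp532, Zfp251 and Zfp280d kept their calls in DKO in each of the 18 alternatives tried. The adjusted p in parentheses below is the highest over these alternatives. Zfp579 lost its call without DKO A, DKO B, DKO C, Tet1KO A or Tet1KO C (adjusted p up to 0.109). The call of Zfp867 was lost without DKO C, Tet1KO A or Tet1KO B (adjusted p up to 0.0699), that of Zfp758 without DKO A, DKO C, Tet1KO A or Tet1KO B (adjusted p up to 0.124) and that of Zfp386 without DKO A, DKO C or Tet1KO B (adjusted p up to 0.0702). The fall of Zfp395 was lost without DKO A, DKO B, DKO C, Tet1KO A or Tet1KO B (adjusted p up to 0.124) and that of Zfp746 without DKO A, DKO B, Tet1KO A or Tet1KO B (adjusted p up to 0.156). Zfp330 lost its call without DKO C or Tet1KO A (adjusted p up to 0.0603), Zfp459 without DKO B, DKO C or Tet1KO A (adjusted p up to 0.0705), and Zfp143 without DKO A, DKO B, DKO C, N1300T 49 B, Tet1KO A or Tet1KO B (adjusted p up to 0.137). Of the further members, Zfp27 lost its call without DKO A, DKO B, DKO C, Tet1KO A or Tet1KO B (adjusted p up to 0.165), Zfp971 without DKO C, Tet1KO A or Tet1KO B (adjusted p up to 0.135), Zfp534 without DKO A, DKO C, Tet1KO A or Tet1KO B (adjusted p up to 0.182), Zfp871 without DKO A, DKO B, DKO C, Tet1KO A or Tet1KO B (adjusted p up to 0.127), Zfp689 without DKO A, DKO B, DKO C, N1300T 81 A, Tet1KO A or Tet1KO C (adjusted p up to 0.189) and Zfp7 without DKO A, DKO B, DKO C, N1300T 49 B, N1300T 81 A, N1300T 81 B, N1300T 81 C, Tet1KO A, Tet1KO B or Tet1KO C (adjusted p up to 0.161). Zfp143 also lost its call with library sizes alone, and Zfp143 and Zfp7 with no filter on low counts. Scaling by library size alone gave 34 members higher and 4 lower, where 14.9% of all tested genes were called. Over all tested genes it put 63.8% of the calls on the higher side, where TMM factors put 1259 of 2399 there.

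**Figure D2:**
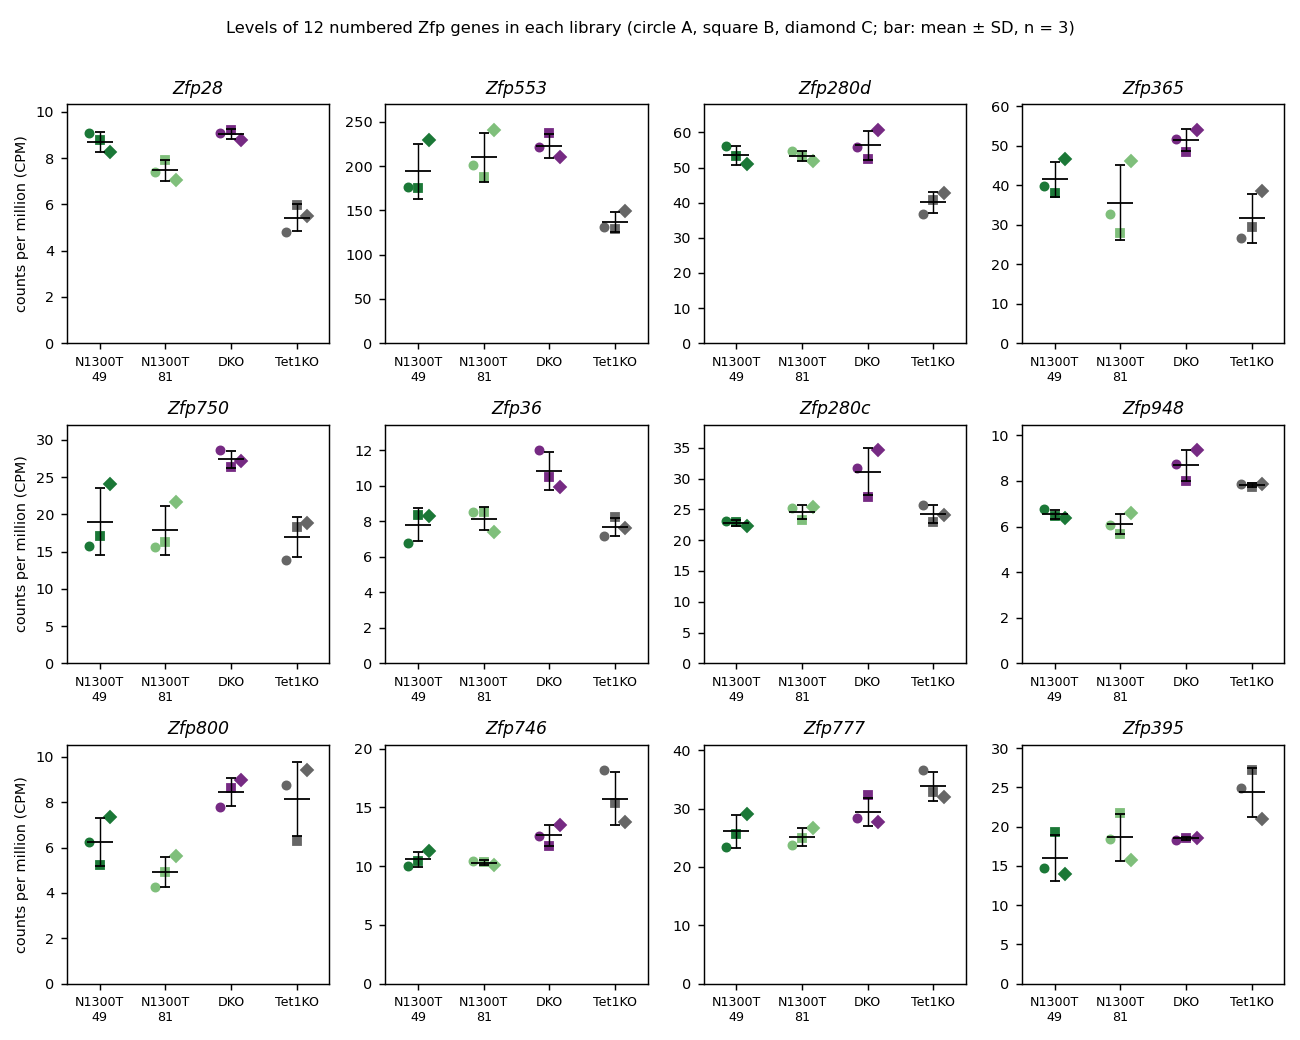
Levels in CPM (vertical axis from 0) of 12 numbered Zfp genes in N1300T 49, N1300T 81, DKO and Tet1KO; points are libraries A (circle), B (square) and C (diamond), and bars are the mean ± SD of 3. Zfp28, Zfp553 and Zfp280d lie lowest in Tet1KO, Zfp750 and Zfp280c lie highest in DKO, and Zfp746 lies highest in Tet1KO and lowest in both N1300T preparations.

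In N1300T against Tet1KO 18 members were higher and 13 lower, 11.3% of the 275, where 15.7% of all tested genes were called (7.69% higher and 8.04% lower) and 17.2% of the genes at 5 CPM. The members' share was again below the background. Outside the members, Zfp428, left out by name, was higher, by 0.50 ± 0.07 (adjusted p 6.19e-05). Zfp263 and Zfp560, also left out, were lower, at -9.60 ± 0.51 (adjusted p 1.04e-08) and -3.55 ± 0.48 (adjusted p 7.42e-05). Zfp263 was lower in DKO than in Tet1KO too, at -3.63 ± 0.36 (adjusted p 9.82e-06). Among the members the order was as follows. Zfp28 and Zfp553 led here too, at 0.57 ± 0.10 (adjusted p 0.000617) and 0.56 ± 0.09 (adjusted p 0.000307). Zfp579 rose by 0.56 ± 0.15 (adjusted p 0.0163). Zfp689 (chr7:127442136-127449158), a KRAB gene near Zfp553, had 8.98, 11.7 and 11.04 CPM in N1300T 49, 11.004, 11.2 and 10.5 CPM in N1300T 81, 9.87, 10.6 and 9.76 CPM in DKO and 5.74, 8.74 and 7.39 CPM in Tet1KO. Every library of N1300T lay above every library of Tet1KO, and its rise was 0.55 ± 0.12 (adjusted p 0.00364). Zfp771, the next member after Zfp553 on the chromosome, had 23.9, 20.2 and 24.7 CPM in N1300T 49, 23.8, 20.8 and 26.6 CPM in N1300T 81, 21.8, 24.3 and 19.2 CPM in DKO and 15.8, 16.4 and 20.03 CPM in Tet1KO and rose by 0.41 ± 0.10 (adjusted p 0.00947).

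Zfp280d (chr9:72274618-72363779), named like Zfp280c after the fly insulator protein Su(Hw), had 56.2, 53.3 and 50.9 CPM in N1300T 49, 54.8, 53.2 and 51.8 CPM in N1300T 81, 55.7, 52.4 and 60.7 CPM in DKO and 36.8, 40.6 and 42.8 CPM in Tet1KO. Tet1KO was lowest without overlap, and the rise in N1300T was 0.41 ± 0.06 (adjusted p 0.000228). Zfp946 and Zfp386, both with KRAB matches, rose by 0.44 ± 0.12 (adjusted p 0.0166) and 0.37 ± 0.11 (adjusted p 0.0297). Outside the 8 largest, Zfp229 rose by 0.33 ± 0.07 (adjusted p 0.00349) and Zfp251 by 0.31 ± 0.07 (adjusted p 0.00716).

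The largest fall in N1300T was that of Zfp746, with 9.9998, 10.5 and 11.3 CPM in N1300T 49, 10.5, 10.4 and 10.1 CPM in N1300T 81, 12.6, 11.7 and 13.5 CPM in DKO and 18.1, 15.4 and 13.8 CPM in Tet1KO. All 6 N1300T libraries lay below all DKO libraries, and these below all Tet1KO libraries. The fall in N1300T was -0.60 ± 0.09 (adjusted p 0.000197). Zfp777 (chr6:48017660-48050004), its KRAB neighbour, had 23.5, 25.7 and 29.1 CPM in N1300T 49, 23.8, 24.9 and 26.7 CPM in N1300T 81, 28.4, 32.3 and 27.7 CPM in DKO and 36.5, 32.8 and 32.0 CPM in Tet1KO and fell, at -0.41 ± 0.08 (adjusted p 0.00148). Zfp282 and Zfp956 of the same stretch of chromosome 6 fell, at -0.40 ± 0.11 (adjusted p 0.0167) and -0.39 ± 0.11 (adjusted p 0.0272). Zfp800, elsewhere on chromosome 6, fell, at -0.56 ± 0.13 (adjusted p 0.00785). Zfp395 fell, at -0.50 ± 0.11 (adjusted p 0.00539), although N1300T 81 B overlapped Tet1KO. Zfp827 (chr8:79027486-79193768), whose human relative recruits the NuRD complex to telomeres, had 10.96, 12.9 and 16.7 CPM in N1300T 49, 13.5, 14.2 and 14.4 CPM in N1300T 81, 15.1, 15.5 and 14.9 CPM in DKO and 17.4, 17.8 and 18.0 CPM in Tet1KO and fell, at -0.38 ± 0.09 (adjusted p 0.0112), with no overlap. Zfp58 fell, at -0.39 ± 0.12 (adjusted p 0.0374), but 50.2% of its exon bases overlap another gene and 46.6% of its 50-base stretches recur elsewhere, so its reads may be split.

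Further members called in N1300T against Tet1KO were Zfp27 (0.36 ± 0.09), Zfp97 (0.30 ± 0.10), Zfp574 (0.22 ± 0.07) and Zfp740 (0.15 ± 0.05), which rose, and Zfp637 (-0.33 ± 0.10), Zfp26 (-0.31 ± 0.09), Zfp330 (-0.23 ± 0.07) and Zfp367 (-0.21 ± 0.07), which fell. Zfp532, Zfp600, Zfp809 and Zfp970, which rose, and Zfp948, which fell, complete the 31 and are given with their values below. Each preparation taken singly gave fewer calls. N1300T 49 had 10 members higher and 5 lower than Tet1KO, where 10.9% of all tested genes were called (5.16% higher and 5.7% lower). N1300T 81 had 14 higher and 10 lower, where 12.2% were called (6.28% higher and 5.9% lower). Same-letter libraries of N1300T 81 and Tet1KO deviated together for all 3 letters, and with a replicate block N1300T 81 had 23 members higher and 13 lower, where 17.3% of all tested genes were called. In both preparations 12 members were called, and all 31 members called for the mean of both had the same sign in each. Leaving out 1 library at a time gave 7 to 22 members higher and 4 to 16 lower. The higher count was 7 without Tet1KO A, and the lower count was 4 without Tet1KO A, 7 without Tet1KO C, 7 without N1300T 49 B and 8 without N1300T 81 A. The share of all tested genes called fell as well, from 15.7% to 8.47% without Tet1KO A and 13.4% without Tet1KO C. It was 13.8% without N1300T 49 B and 13.2% without N1300T 81 A. Calls that held in every alternative were those of Zfp28, Zfp553, Zfp689, Zfp280d, Zfp229, Zfp251, Zfp746, Zfp777, Zfp395 and Zfp827. Zfp579 lost its call without Tet1KO A or Tet1KO C (adjusted p up to 0.106), Zfp946 without Tet1KO A or Tet1KO C (adjusted p up to 0.0854) and Zfp800 without Tet1KO A or Tet1KO C (adjusted p up to 0.0585). That of Zfp771 was lost without Tet1KO A (adjusted p up to 0.0789), that of Zfp282 without Tet1KO A (adjusted p up to 0.147), that of Zfp386 without N1300T 49 A, N1300T 81 A or Tet1KO B (adjusted p up to 0.175), Zfp956 without N1300T 49 B, N1300T 81 A, Tet1KO A or Tet1KO C (adjusted p up to 0.141), and that of Zfp58 without DKO A, N1300T 49 B, N1300T 49 C, N1300T 81 A, N1300T 81 B, Tet1KO A or Tet1KO C (adjusted p up to 0.224). Zfp27 lost its call without Tet1KO A (adjusted p up to 0.0897), Zfp97 without DKO A, N1300T 49 A, N1300T 81 A, Tet1KO A or Tet1KO B (adjusted p up to 0.174), Zfp574 without DKO A, N1300T 49 B, N1300T 49 C, N1300T 81 C, Tet1KO A or Tet1KO C (adjusted p up to 0.246), Zfp740 without DKO A, DKO B, DKO C, N1300T 49 B, N1300T 49 C, N1300T 81 B, N1300T 81 C, Tet1KO A or Tet1KO B (adjusted p up to 0.271), Zfp637 without DKO A, N1300T 49 B, N1300T 81 A, Tet1KO A or Tet1KO C (adjusted p up to 0.115), Zfp26 without N1300T 49 B, N1300T 49 C, N1300T 81 B, Tet1KO A or Tet1KO C (adjusted p up to 0.214), Zfp367 without DKO A, DKO B, DKO C, N1300T 49 B, N1300T 49 C, N1300T 81 A, N1300T 81 B, Tet1KO A or Tet1KO C (adjusted p up to 0.258) and Zfp330 without DKO A, DKO B, N1300T 49 B, N1300T 49 C, N1300T 81 A, N1300T 81 B, N1300T 81 C or Tet1KO A (adjusted p up to 0.340). Zfp740, Zfp637 and Zfp367 also lost their calls with no filter on low counts.

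Across all comparisons 45 members were called at least once, each of them in N1300T or DKO against Tet1KO, and 230 in none. The 14 called in both N1300T and DKO make up 45.2% of the 31 called in N1300T and 50% of the 28 called in DKO. Of all tested genes 15.7% were called in N1300T and 15% in DKO. How many of those were called in both is not given here, so the members' overlap has no background to be read against. Of the 14 members, 11 were higher in both (Zfp28, Zfp553, Zfp579, Zfp689, Zfp280d, Zfp386, Zfp251, Zfp532, Zfp27, Zfp600 and Zfp970) and 3 were lower in both (Zfp746, Zfp395 and Zfp330). Since both comparisons use the same 3 Tet1KO libraries, the shared calls are listed and not counted as evidence of a shared response. Values side by side were 0.41 in N1300T and 0.45 in DKO for Zfp280d, and 0.31 in N1300T and 0.37 in DKO for Zfp251.

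**Figure D3:**
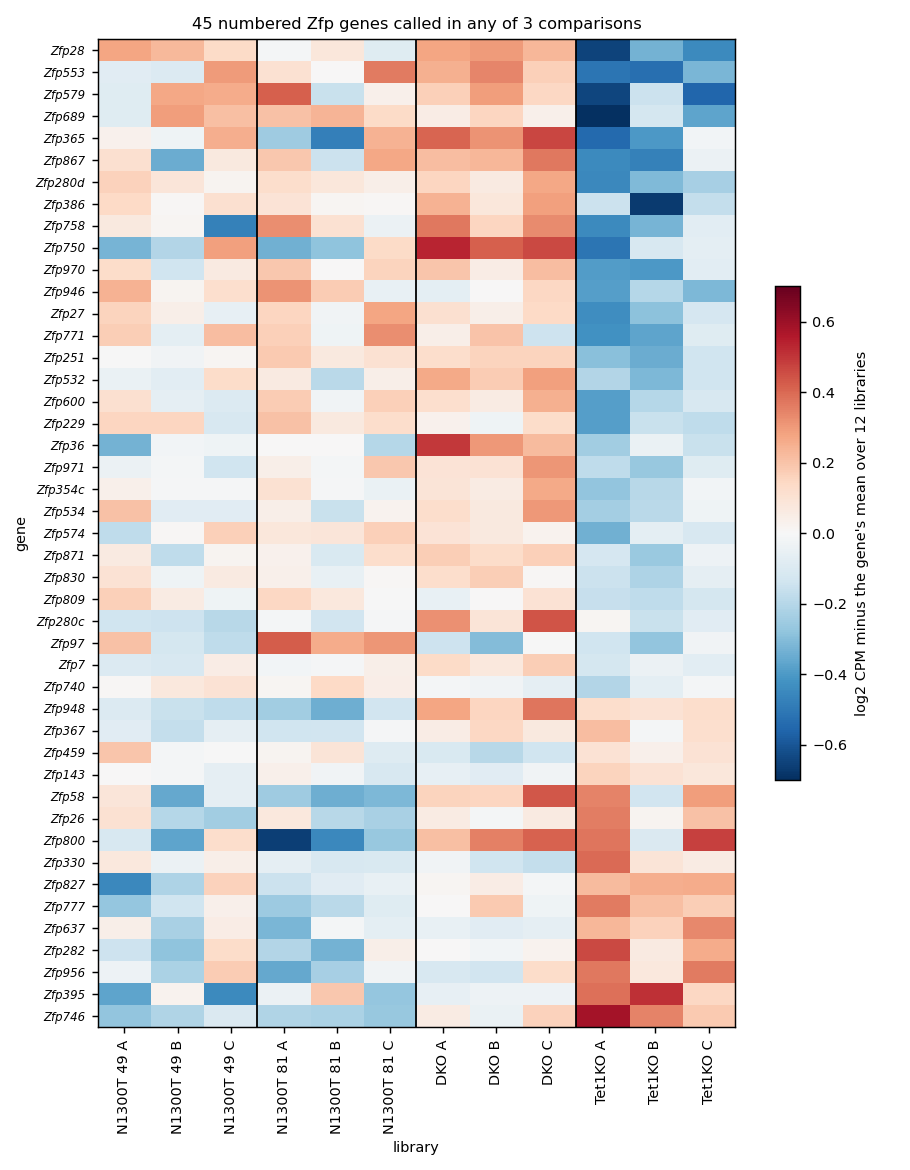
Heat map of the 45 called members (rows, ordered by the sum of their log2 fold changes in N1300T and DKO against Tet1KO) in 12 libraries (columns); colour gives log2 CPM minus the gene's mean over the 12 libraries, red above and blue below. Upper rows such as Zfp28 and Zfp553 are blue in the 3 Tet1KO libraries, lower rows such as Zfp746 and Zfp395 are red there, and Zfp746 is reddest in Tet1KO A.

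Between N1300T and DKO the members differed less. None was higher and 5 were lower in N1300T, 1.82% of the 275, where 3.73% of all tested genes were called (1.7% higher and 2.02% lower) and 4.57% of the genes at 5 CPM. Of the symbols left out by name, Zfp428 was higher in N1300T, by 0.30 ± 0.07 (adjusted p 0.0181), and Zfp263 and Zfp560 were lower. At an unadjusted p under 0.05 there were 37 members in either direction, and DESeq2 called 3 higher and 9 lower, where it called 7.72% of all genes. The comparison is also the test of whether the effects against Tet1KO differ between N1300T and DKO. Zfp800 (chr6:28210548-28398033) had 6.23, 5.21 and 7.33 CPM in N1300T 49, 4.27, 4.92 and 5.61 CPM in N1300T 81, 7.78, 8.605 and 8.96 CPM in DKO and 8.74, 6.28 and 9.39 CPM in Tet1KO. All N1300T libraries lay below all DKO libraries, at -0.57 ± 0.13 (adjusted p 0.0206). Zfp750, given above, differed by -0.55 ± 0.12 (adjusted p 0.0187).

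Zfp948 (chr17:21565816-21589324), a KRAB gene with 15 fingers, had 6.75, 6.47 and 6.38 CPM in N1300T 49, 6.08, 5.69 and 6.58 CPM in N1300T 81, 8.75, 7.99 and 9.34 CPM in DKO and 7.86, 7.73 and 7.87 CPM in Tet1KO. Its N1300T libraries stood below both other groups. The difference was -0.43 ± 0.09 (adjusted p 0.0116) from DKO and -0.31 ± 0.09 (adjusted p 0.0246) from Tet1KO. Zfp36 encodes tristetraprolin, which binds AU-rich mRNA and speeds its decay, and had 6.75, 8.37 and 8.31 CPM in N1300T 49, 8.504, 8.52 and 7.397 CPM in N1300T 81, 11.99, 10.5 and 9.92 CPM in DKO and 7.16, 8.22 and 7.63 CPM in Tet1KO. Only DKO stood apart, with N1300T at -0.41 ± 0.10 (adjusted p 0.0267). Zfp280c, on chromosome X, had 23.1, 23.0 and 22.3 CPM in N1300T 49, 25.2, 23.2 and 25.3 CPM in N1300T 81, 31.7, 27.1 and 34.6 CPM in DKO and 25.7, 22.9 and 24.1 CPM in Tet1KO, again with DKO alone higher, and N1300T differed from it by -0.36 ± 0.07 (adjusted p 0.0107). Its rise of 0.33 ± 0.09 (adjusted p 0.016) in DKO against Tet1KO was lost without DKO A, DKO C or Tet1KO B (adjusted p up to 0.103), and the fall of Zfp948 against Tet1KO without Tet1KO A, Tet1KO B or Tet1KO C (adjusted p up to 0.0901) and with no filter on low counts.

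None of these 5 calls was made without DKO A or without DKO C. The share of all tested genes called was then 0.773% without DKO A and 0.656% without DKO C, while the log2 differences over all alternatives stayed between -0.63 and -0.52 for Zfp800, -0.64 and -0.49 for Zfp750, -0.48 and -0.38 for Zfp948, -0.47 and -0.32 for Zfp36 and -0.45 and -0.28 for Zfp280c. Scaling by library size alone gave 0 members higher and 8 lower, where 4.17% of all tested genes were called. Leaving out 1 library at a time gave 0 to 3 members higher and 0 to 8 lower, with 0 lower without DKO A and without DKO C, 2 without DKO B, and 8 without N1300T 81 C and without Tet1KO B. The higher count was 3 without N1300T 49 C and without N1300T 81 C. Of all tested genes 2.32% were called without DKO B, 5.27% without N1300T 49 C, 6.46% without N1300T 81 C and 3.97% without Tet1KO B. Zfp800 lost its call without DKO A, DKO B or DKO C (adjusted p up to 0.152), Zfp750 without DKO A, DKO B, DKO C or N1300T 49 A (adjusted p up to 0.116) and Zfp36 without DKO A, DKO B, DKO C or N1300T 49 A (adjusted p up to 0.203). For Zfp948 the call was lost without DKO A or DKO C (adjusted p up to 0.117) and for Zfp280c without DKO A or DKO C (adjusted p up to 0.134). In single preparations, N1300T 49 against DKO had 0 members higher and 1 lower, Zfp280c, where 2.29% of all tested genes were called (1.29% higher and 0.999% lower). N1300T 81 had 1 higher, Zfp97, and 3 lower, Zfp750, Zfp948 and Zfp800, where 2.37% were called (1.04% higher and 1.33% lower). Zfp97 was outside the rule for named genes and was named after its values were seen.

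N1300T 49 and N1300T 81 did not differ in any member at the threshold, where 0.362% of all tested genes were called. At an unadjusted p under 0.05 there were 11 members, and DESeq2 called 0. The members' median log2 fold change between the preparations was -0.00396, and 135 of 275 were higher in N1300T 49.

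On the 4 lists by role stood 54 members. Of these, 3 (5.56%) were called in N1300T against Tet1KO and 6 (11.1%) in DKO against Tet1KO, where 15.7% of all tested genes were called in N1300T and 15% in DKO. Of 24 chromatin and transcription cofactors, Zfp532, known in human from fusions with NUT, was the only one higher, by 0.20 ± 0.06 (adjusted p 0.0355) in N1300T and 0.42 ± 0.07 (adjusted p 0.000675) in DKO. Its values were 109.6, 107 and 124 CPM in N1300T 49, 118, 99.5 and 117 CPM in N1300T 81, 136, 128 and 138 CPM in DKO and 98.3, 90.9 and 103 CPM in Tet1KO, and 28.7% of its exon bases overlap other annotated genes, so their reads cannot be told apart without strand. The rise of Zfp532 in N1300T was lost without DKO A, N1300T 49 C, N1300T 81 A, N1300T 81 C, Tet1KO A or Tet1KO B (adjusted p up to 0.152). Zfp827 was lower in N1300T and Zfp143 in DKO. The list's median was -0.01 in N1300T and 0.02 in DKO, against 0.00 in N1300T and -0.01 in DKO over all tested genes. Zfp281, a partner of NANOG, stood at 135, 129 and 136 CPM in N1300T 49, 137, 116 and 138 CPM in N1300T 81, 142, 139 and 153 CPM in DKO and 138, 126 and 153 CPM in Tet1KO, where N1300T and DKO both overlapped Tet1KO.

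Among the 12 members with roles in RNA, ribosomes or the spindle, none was called in N1300T against Tet1KO, and Zfp36 and Zfp830 were higher in DKO. Zfp830, needed for splicing and survival of the early embryo, had 53.4, 55.2 and 49.3 CPM in DKO and 44.2, 42.3 and 46.9 CPM in Tet1KO, a rise of 0.20 ± 0.07 (adjusted p 0.0457) that was lost without DKO A, DKO B, N1300T 81 A, N1300T 81 B, N1300T 81 C, Tet1KO A or Tet1KO B (adjusted p up to 0.173) and with no filter on low counts. The list's medians were 0.04 in N1300T and 0.015 in DKO against Tet1KO. Zfp36 lost its rise in DKO without DKO A or Tet1KO A (adjusted p up to 0.0842).

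Of 11 KRAB repressors with a described target or trait, Zfp809 was called in N1300T, at 0.22 ± 0.07 (adjusted p 0.0319), and none in DKO. Zfp809 silences retroviruses that use a proline tRNA primer, and had 29.7, 27.5 and 25.9 CPM in N1300T 49, 29.3, 27.8 and 26.4 CPM in N1300T 81, 25.5, 26.5 and 28.3 CPM in DKO and 23.6, 23.3 and 24.3 CPM in Tet1KO. Each N1300T and each DKO library lay above the Tet1KO libraries, although the difference of 0.13 ± 0.08 (adjusted p 0.261) in DKO missed the threshold. The call in N1300T was lost without N1300T 49 A, N1300T 81 A, Tet1KO A, Tet1KO B or Tet1KO C (adjusted p up to 0.102). Zfp445, which helps keep imprints, and Zfp568 were not called, at 0.11 ± 0.06 and -0.05 ± 0.06 in N1300T and 0.15 ± 0.06 and 0.07 ± 0.07 in DKO. The medians of the list were 0.09 in N1300T and 0.07 in DKO.

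Of 8 members with developmental roles, Zfp365 and Zfp354c, a KRAB repressor studied in bone, were higher in DKO and none was called in N1300T. Zfp354c had 29.0, 28.4 and 32.8 CPM in DKO and 22.5, 23.8 and 26.9 CPM in Tet1KO, a rise of 0.26 ± 0.08 (adjusted p 0.0335) that was lost without DKO A, DKO C, Tet1KO A or Tet1KO B (adjusted p up to 0.170). The median of these 8 was 0.10 in N1300T and 0.19 in DKO.

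Letters of a KRAB A box were found in the coding sequence of 152 of 273 members that matched GENCODE M21, and 121 had none. KRAB members lay at lower levels, with a median of 13.9 CPM against 31.0 CPM without KRAB. Per kilobase of exon the medians were closer, at 3.53 CPM with KRAB and 4.84 CPM without. In N1300T against Tet1KO 10 KRAB members were higher and 4 lower, and of those without a match 8 were higher and 9 lower. In DKO 13 KRAB members were higher and 1 lower, and of the others 10 were higher and 4 lower. Called in either direction were 9.21% of the KRAB members in each comparison, and of the others 14% in N1300T and 11.6% in DKO. All lay below the 15.7% of all tested genes in N1300T and 15% in DKO. By direction, 7.86% of all tested genes were called higher and 7.12% lower in DKO. The medians were 0.04 in N1300T for both kinds, and in DKO 0.105 with KRAB and 0.06 without. Of the KRAB members 86 lay above Tet1KO in N1300T and 115 in DKO.

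Members were also grouped by their count of C2H2 fingers. Those with 10 or more finger matches numbered 157. In DKO 15 of them were higher and 0 lower, with a median of 0.13 and 128 above Tet1KO, while in N1300T 12 were higher and 3 lower, with a median of 0.05. The 110 members with 1 to 9 fingers had 5 higher and 4 lower in DKO at a median of 0.02, and 6 higher and 9 lower in N1300T at a median of -0.00498. Called in either direction were 9.55% of the members with 10 or more fingers in each comparison. Of those with 1 to 9 fingers 13.6% were called in N1300T and 8.18% in DKO. All lay below the shares of all tested genes called in either direction. In DKO all called members with 10 or more fingers were higher, where 7.86% of all tested genes were called higher and 7.12% lower. The remaining 6 had no match to the C2H2 letters. They include Zfp36, whose fingers are of the CCCH type, with Zfp365, Zfp750, Zfp330 and Zfp839. In DKO Zfp36, Zfp365 and Zfp750 were called higher and Zfp330 lower, and the rest of the 6 were not called. In N1300T Zfp330 alone was called. Of all tested genes 15% were called in DKO, and 6 genes are too few to compare with that share. No test of these classes against each other was made.

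**Figure D4:**
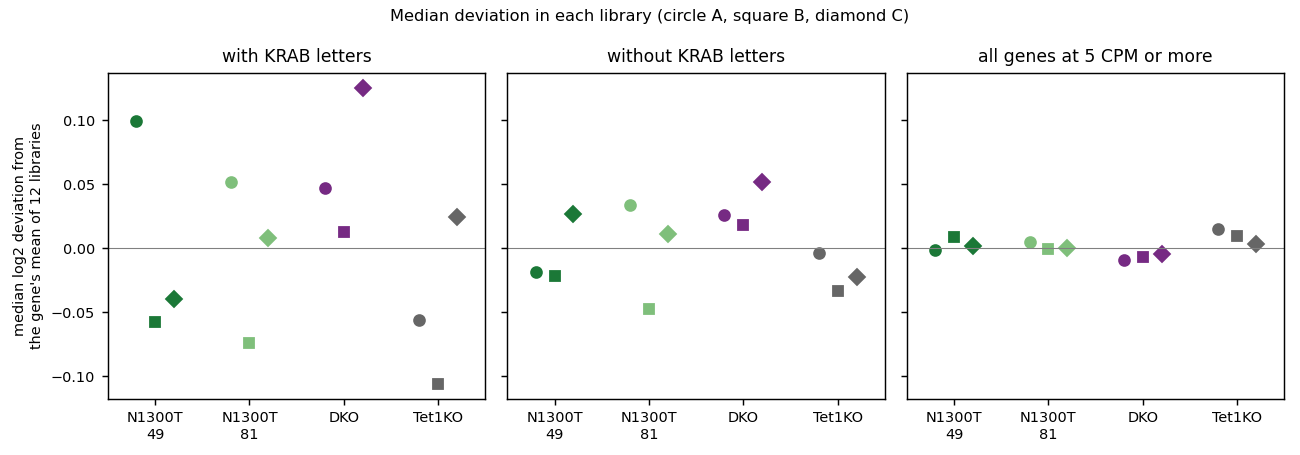
Median log2 deviation from each gene's mean over 12 libraries (vertical axis) in each library, for 152 members with KRAB letters, 121 without and all genes at 5 CPM or more; circles, squares and diamonds are libraries A, B and C. KRAB members run from -0.106 in Tet1KO B to 0.125 in DKO C, and the libraries lettered B lie lowest in every group.

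The libraries of each group spread widely in this respect. The median deviation of the KRAB members was 0.0991, -0.0574 and -0.0401 in N1300T 49 A, B and C, 0.0518, -0.0741 and 0.00752 in N1300T 81, 0.0472, 0.0126 and 0.125 in DKO and -0.0559, -0.106 and 0.0241 in Tet1KO. Set against the Tet1KO library of the same letter, DKO lay higher by 0.103, 0.119 and 0.101 for A, B and C. The differences from Tet1KO were 0.155, 0.0486 and -0.0642 in N1300T 49 and 0.108, 0.0319 and -0.0166 in N1300T 81, so that the C libraries of N1300T lay below Tet1KO C. No label says that a letter marks a shared culture or day. Over all genes at 5 CPM the medians stayed between -0.00907 and 0.0148. With 1 library left out at a time, or another of the settings tried, the members' median stayed between 0.0135 and 0.0485 in N1300T against Tet1KO, between 0.0605 and 0.114 in DKO against Tet1KO and between -0.0831 and -0.0226 in N1300T against DKO.

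Promoter windows of KRAB members were poorer in CG, with a median of 11 (131 windows) against 22.5 without KRAB (98 windows). Members called higher had a median of 12 CG in N1300T and 12 in DKO, those called lower 22 in N1300T and 16.5 in DKO, and those not called 16 in each. The 12 lower members with a window in N1300T include Zfp777 with 51 CG, Zfp800 with 41 and Zfp746 with 39. The 7-base string ACTACAA, part of the motif known for Zfp143, was searched on both strands. It occurred in 17 of 230 member windows (7.39%) and in 3.33% of all 27025 windows, which are all 300 bases long. The latter again belong to symbols at any level.

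Members are clustered in the genome, and 68 lie on chromosome 7, 35 on chromosome 17 and 26 on chromosome 13. With at most 500 kb between neighbours, 138 members fell into 23 clusters of 3 or more. Zfp553, Zfp771 and Zfp689 belong to a cluster of 9 at chr7:127233061-127885996, in which these 3 were higher in N1300T and Zfp553 and Zfp689 in DKO. The other 6 (Zfp768, Zfp747, Zfp764, Zfp688, Zfp668 and Zfp646) were not called, and the cluster's median was 0.13 in each. A cluster of 13 at chr17:21008941-22867309 had all 13 members above Tet1KO in DKO (median 0.215, with Zfp758 called) and 7 in N1300T (median 0.03), where Zfp229 and Zfp946 were higher and Zfp948 lower.

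Zfp746, Zfp777, Zfp956 and Zfp282 lie with Zfp212 and Zfp398 at chr6:47835633-48086986. All 6 lay below Tet1KO in both comparisons, with medians of -0.395 in N1300T and -0.27 in DKO. Chromosome 6 as a whole went the same way. The median of its 434 genes at 5 CPM was -0.14 in N1300T and -0.17 in DKO, and 29% of them were called lower in N1300T and 29.7% in DKO. Its 13 members had medians of -0.33 in N1300T, with 6 called lower (Zfp746, Zfp800, Zfp777, Zfp282, Zfp956 and Zfp637), and -0.12 in DKO, with Zfp746 lower. Tet1KO A stood apart on this chromosome, its genes' median deviation being 0.18, against 0.0716 in Tet1KO B and 0.0677 in Tet1KO C. Without Tet1KO A the chromosome's medians were -0.10 in N1300T and -0.13 in DKO, and the members' were -0.23 in N1300T and -0.11 in DKO. Zfp777 and Zfp746 were then still lower in N1300T, and no member of chromosome 6 was called in DKO. The part of this chromosome-wide difference in the members' falls was not tested.

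Chromosomes 8 and 11 also differed as a whole. Genes of chromosome 8 had medians of -0.11 in N1300T and -0.10 in DKO, and Tet1KO A deviated by 0.128. Of its 17 members Zfp827 and Zfp330 were lower in N1300T and Zfp330 in DKO. Of its 538 genes at 5 CPM 24% were called lower in N1300T and 20.1% in DKO. Genes of chromosome 11 had medians of 0.09 in N1300T and 0.06 in DKO, with Tet1KO A at -0.104, and all 14 members there lay above Tet1KO in DKO, with Zfp354c, Zfp867, Zfp830 and Zfp750 called. Of the 852 genes of chromosome 11 at 5 CPM 13.8% were called higher in DKO and 15.4% in N1300T. Off chromosomes 6, 8 and 11, 231 members remained, with 18 higher and 5 lower in N1300T and 19 higher and 3 lower in DKO. Over all chromosomes 7.69% of the tested genes were called higher and 8.04% lower in N1300T. In DKO these shares were 7.86% and 7.12%. Unlike the 231 members, both pairs of shares include the genes of chromosomes 6, 8 and 11. Whether these deviations of Tet1KO A take part in the calls was not tested. Without that library 9 of the 28 member calls in DKO against Tet1KO were kept, and 11 of the 31 in N1300T against Tet1KO. All 5 calls in N1300T against DKO, a difference that does not include Tet1KO, were kept, which makes 25 of 64 in the 3 comparisons. Without Tet1KO A 8.47% of all tested genes were called in N1300T and 8.46% in DKO against Tet1KO, where all libraries gave 15.7% and 15%.

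**Figure D5:**
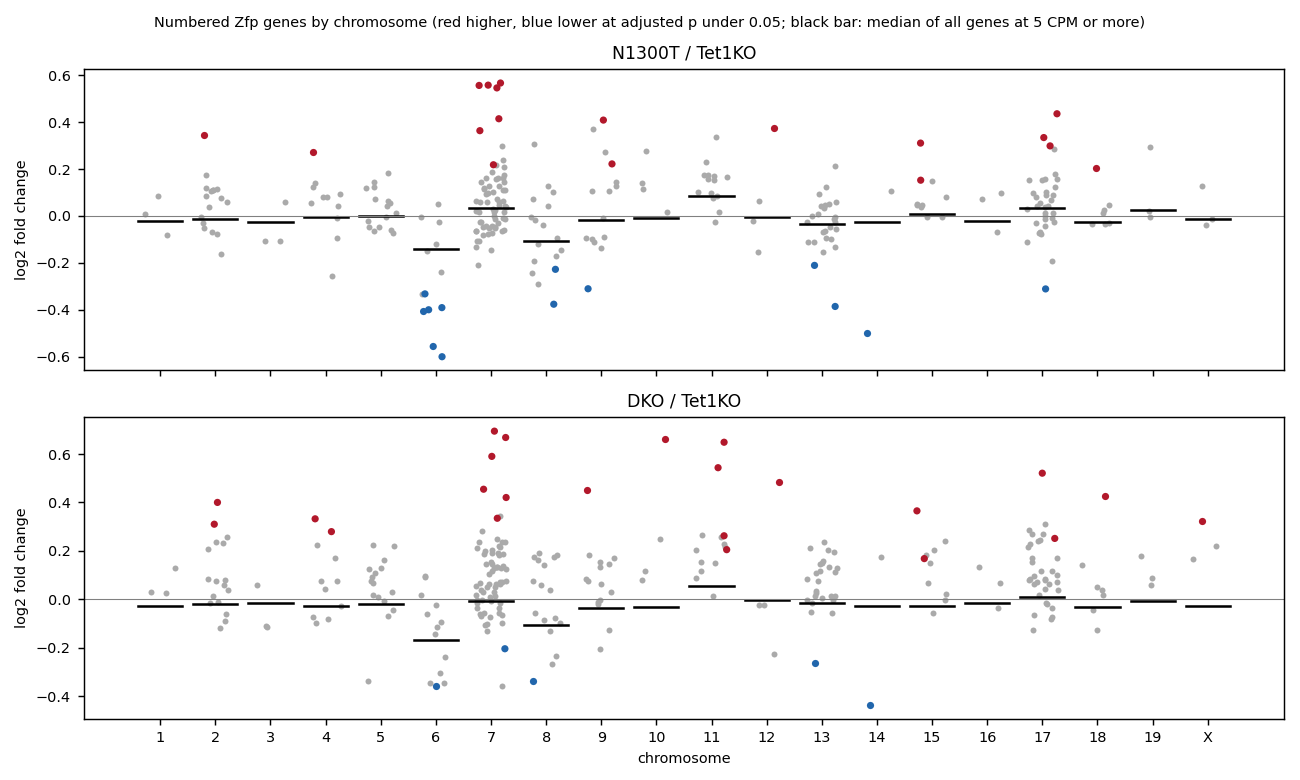
Log2 fold changes of the numbered Zfp genes by chromosome, for N1300T against Tet1KO (upper panel) and DKO against Tet1KO (lower panel); red points were called higher, blue points lower and grey points not called, and black bars give the median of all genes at 5 CPM or more. On chromosome 6 the bar lies at -0.14 in N1300T and -0.17 in DKO and 6 members are blue in N1300T, where 29% of its genes at 5 CPM were called lower. Of the 68 members on chromosome 7, 7 are red in N1300T and 6 in DKO. Of its 748 genes at 5 CPM 10.7% were called higher in N1300T and 8.56% in DKO, so the members' counts lie near that share.

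Some members share sequence with close relatives, so that the authors' counting could have split or dropped their reads. In 41 members at least 10% of the 50-base stretches of their exons recur in another gene. Of these 4 were higher and 1 lower in N1300T, and 6 higher and 0 lower in DKO. Of all tested genes 15.7% were called in either direction in N1300T and 15% in DKO. The calls of the 41 in either direction did not exceed these shares. By direction, 7.69% of all tested genes were called higher and 8.04% lower in N1300T. In DKO 7.86% were called higher and 7.12% lower. In each comparison the higher members make up a larger share of the 41 than that, and the lower members a smaller one. These differences were not tested. Zfp600, with 81.2% of its stretches shared, had 77.6, 68.8 and 67.2 CPM in N1300T 49, 81.1, 70.4 and 80.6 CPM in N1300T 81, 77.8, 74.5 and 85.3 CPM in DKO and 54.9, 62.4 and 66.5 CPM in Tet1KO. Tet1KO was lowest, and the rise was 0.27 ± 0.07 (adjusted p 0.0141) in N1300T and 0.33 ± 0.08 (adjusted p 0.0101) in DKO. Zfp970, with 49.5% shared, rose by 0.35 ± 0.08 (adjusted p 0.00754) in N1300T and 0.40 ± 0.09 (adjusted p 0.00739) in DKO. Both calls in N1300T, and those in DKO, were lost without Tet1KO A, and that of Zfp600 in DKO also without DKO C. The levels of such genes are uncertain. In Zfp28 13.7% of the stretches are shared.

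Of 21 partners through which KRAB proteins act, 4 (19%) were called in N1300T against Tet1KO and 1 (4.76%) in DKO, where 15.7% of all tested genes were called in N1300T and 15% in DKO. Trim28 averaged 2317 ± 229 CPM in N1300T 49, 2272 ± 157 CPM in N1300T 81, 2236 ± 9.77 CPM in DKO and 2331 ± 182 CPM in Tet1KO (SD, n = 3 each), and was not called. Setdb1 was not called either, at -0.07 ± 0.05 (adjusted p 0.42) in N1300T and -0.02 ± 0.06 (adjusted p 0.867) in DKO. On the list, Morc2a, a member of the silencing complex around HUSH, was higher in both, by 0.26 ± 0.05 (adjusted p 0.000745) in N1300T and 0.31 ± 0.05 (adjusted p 0.000733) in DKO. In N1300T Ehmt2 was higher by 0.18 ± 0.05 (adjusted p 0.0306) and Cbx1 by 0.14 ± 0.05 (adjusted p 0.0444), and Pphln1, a HUSH subunit, was lower, at -0.28 ± 0.06 (adjusted p 0.00449). The list's medians were -0.00419 in N1300T and -0.03 in DKO. Of 22 related Zkscan and Zscan genes 9.09% were called in N1300T and 4.55% in DKO. Zscan10 was higher by 0.23 ± 0.06 (adjusted p 0.0168) in N1300T and by 0.25 ± 0.07 (adjusted p 0.0245) in DKO, and Zscan25 by 0.24 ± 0.07 (adjusted p 0.0303) in N1300T. The calls of Morc2a and Pphln1 were kept in every alternative. That of Cbx1 was lost with no filter on low counts and without each library but N1300T 49 C (adjusted p up to 0.231). Ehmt2 lost its call without N1300T 49 B, N1300T 49 C, N1300T 81 B, Tet1KO A or Tet1KO C (adjusted p up to 0.161), Zscan10 lost its call in N1300T without Tet1KO A (adjusted p up to 0.148) and in DKO without DKO A, DKO B, DKO C or Tet1KO A (adjusted p up to 0.143), and Zscan25 lost its call without N1300T 49 C, N1300T 81 A, Tet1KO A, Tet1KO B or Tet1KO C (adjusted p up to 0.101).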

How the data were processed

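The authors deposited 1 table of raw read counts per gene for 12 libraries, with the genome mm10 and the tool DESeq2 named in the submitters' processing notes. Neither an aligner nor a counting tool or its strand setting is given in the sources used here. Counts of 2 were more frequent (20282 values) than counts of 1 (5990), so both mates of a pair may have been counted. Groups and replicate letters came from the labels.

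Counts were fitted with edgeR 4.0.16 (quasi-likelihood test, R 4.3.3, limma 3.58.1) with TMM factors of 0.979 to 1.02, the filterByExpr filter by group and Benjamini-Hochberg adjustment over the 16014 genes tested, and a gene was called at an adjusted p under 0.05. CPM used each library's total count, and 99.97% of counts fell in tested genes. Depth ranged from 31515011 to 57054862 counts. SDs are over 3 libraries. Deviations of single libraries are on the log2 CPM scale (prior count 2).

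The rule named the 8 largest rises and falls per comparison, up to 3 called members of each role list, the 5 highest levels, the neighbours of the threshold and 3 partners. Zfp251, Zfp229, Zfp532 in DKO, Zfp600, Zfp970, Zfp97, Zfp637, Zfp445, Zfp281 and the further genes listed with fold changes only were named after their values were seen. The members and lists were chosen with earlier results of these data known.

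Exon lengths, overlaps, shared 50-base stretches, finger letters and KRAB letters came from GENCODE M21. No protein table was used, so coding sequences were translated, and the first KRAB pattern, which found 109 members and missed known KRAB genes, was widened to the pattern that found 152. The widened pattern may still miss KRAB genes. Positions and promoter windows came from RefSeq. Alternatives were other scalings, no filter, DESeq2 1.42.0, a replicate block, halved counts, other member thresholds and each library left out.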

Additional observations from a re-analysis of the deposited data

Results flagged for a closer look

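In 5 members the effect relative to Tet1KO differed between N1300T and DKO, by edgeR's quasi-likelihood test of that difference with Benjamini-Hochberg adjustment. They make up 1.82% of the 275 members, where 3.73% of all tested genes were called. In each of the 5 all 6 N1300T libraries lay below all 3 DKO libraries. The test that picked them used these same libraries, so this separation adds no support. The log2 difference was -0.57 for Zfp800 (adjusted p 0.0206), -0.55 for Zfp750 (adjusted p 0.0187) and -0.43 for Zfp948 (adjusted p 0.0116). It was -0.41 for Zfp36 (adjusted p 0.0267) and -0.36 for Zfp280c (adjusted p 0.0107). Of these, Zfp750, Zfp36 and Zfp280c were higher in DKO than in Tet1KO, and Zfp800 and Zfp948 were lower in N1300T than in Tet1KO. None of the 5 was called without DKO A or without DKO C, where 0.773% and 0.656% of all tested genes were called, against 3.73% with all libraries.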

How the results depend on the processing

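Of 71 calls of members and partners followed through the alternatives none turned round, and of the 64 member calls in the 3 comparisons 17 were kept in every one and 57 in all but those that leave out a library. DESeq2 put 8 members lower in DKO against Tet1KO, and 3 higher and 9 lower in N1300T against DKO. It called 16.5% of all genes in DKO against Tet1KO and 7.72% in N1300T against DKO. Without a filter on low counts N1300T against DKO gave 4 higher and 12 lower, and with library sizes alone 8 lower. Of all genes 5.82% were called without a filter and 4.17% with library sizes alone. The replicate letters do not pair the libraries by any label, and same-letter libraries correlated between -0.0419 and 0.312 in their deviations, over 0.1 in 7 of 18 pairs and for all 3 letters only between N1300T 81 and Tet1KO, although 9 of 12 libraries correlated best with one of their own letter. The fit with a replicate block gave 33 members higher and 11 lower in DKO against Tet1KO, 26 higher and 16 lower in N1300T against Tet1KO, and 4 higher and 14 lower in N1300T against DKO. With this block 20.5%, 20.8% and 9.35% of all tested genes were called in these comparisons, in the same order. A mean of 10 CPM left 8 lower in N1300T against Tet1KO and 2 lower in N1300T against DKO, where 1 CPM gave 8, by their own construction. Off chromosomes 6, 8 and 11 there were 3 lower in DKO and 5 in N1300T against Tet1KO, and 3 in N1300T against DKO, of 231 members. Of all tested genes, those of chromosomes 6, 8 and 11 included, 7.12%, 8.04% and 2.02% were called lower in these comparisons, in the same order. With the symbols left out by name included, an alternative added after seeing the data, 1 was higher in N1300T against DKO. Halved counts gave 25 higher and 6 lower in DKO and 18 higher and 13 lower in N1300T against Tet1KO, and 0 higher and 6 lower in N1300T against DKO. With halved counts 16.7%, 16.9% and 4.64% of all tested genes were called in these comparisons, in the same order.

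Leaving out 1 library gave 9 to 28 members higher and 1 to 7 lower in DKO against Tet1KO, 7 to 22 higher and 4 to 16 lower in N1300T against Tet1KO, 0 to 3 higher and 0 to 8 lower in N1300T against DKO, and 0 between the preparations. The share of all tested genes called then ran from 8.46% to 15.8% in DKO and from 8.47% to 15.8% in N1300T against Tet1KO. In N1300T against DKO it ran from 0.656% to 6.46%. Library-size scaling shifted the median of all genes by at most 0.0384. The cause of these changes was not tested. Each member passed the filter on low counts, and how far depth limited the calls of members near 5 CPM was not tested.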
